A study of Mus musculus with 20 samples.

Results

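The 9 genes described here encode enzymes that turn squalene into cholesterol: Sqle, Lss, Cyp51, Msmo1, Nsdhl, Hsd17b7, Ebp, Sc5d and Dhcr7. They were taken by gene name from a deposited table of 54532 genes, each name matched 1 row, and all 9 passed the filter on low values that left 12752 genes for testing. RNA was sequenced from articular chondrocytes, the cells of joint cartilage, of mice aged 6 weeks. Cells were held for 48 hours with 2 µM GW3965, 20 µM 25-hydroxycholesterol-3-sulfate (25HC3S), 20 µM 25-hydroxycholesterol (25HC) or the DMSO vehicle, with 5 libraries a group and 20 in all. GW3965 is a synthetic, non-steroidal agonist of the liver X receptors (LXR), 25HC is an oxidised cholesterol, and 25HC3S is the same sterol with a sulfate at the 3 position. The labels give no strain or sex and do not say whether the 5 libraries of a group are separate animals, cultures or wells. The p-values thus reflect library-to-library spread only, and that spread may be technical.

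Cholesterol is made in the endoplasmic reticulum from squalene, which squalene epoxidase (Sqle) oxidises and lanosterol synthase (Lss) folds into the first sterol. The enzymes after these remove methyl groups (Cyp51, Msmo1, Nsdhl, Hsd17b7), move a double bond (Ebp), add one (Sc5d) and reduce one (Dhcr7). Their genes are classic targets of SREBP2, a transcription factor that Scap and the Insig proteins hold in the endoplasmic reticulum when sterols are plentiful. 25HC is a textbook inhibitor of that step and also a ligand of LXR. At sterol-regulated promoters SREBPs are known to work together with the general factors NF-Y and Sp1.

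All 9 enzymes were highest with GW3965, and 8 of the 9 had the order GW3965, 25HC, vehicle, 25HC3S from high to low by group mean. Ebp was the exception, with its lowest mean in vehicle. Against vehicle, 9 of 9 were called higher with GW3965 by limma at an adjusted p under 0.05 (3.49% of all tested genes were). With 25HC3S 5 of 9 were called lower (1.14%), and with 25HC 1 of 9 was called higher (0.0314%). The 9 levels summed to 144 to 152 FPKM in the GW3965 libraries, 45.6 to 57.0 in the 25HC3S libraries, 90.1 to 104 in the 25HC libraries and 76.0 to 84.1 in the vehicle libraries. FPKM scale fragments by gene length and by library total, so these levels can be compared between genes.

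Because the group means of most members had the same order, their promoters were read for short motifs. RefSeq windows on build GRCm38.p6, from 250 bases before to 50 after a transcript start, were found for 8 of the 9 genes, with Sqle having none. The upstream 250 bases of 4 of them are shown, 5′ to 3′ on the gene's strand, with the box of NF-Y (CCAAT on either strand) in capitals. They were picked to show the range: Msmo1 and Nsdhl, with the widest response to 25HC3S and to GW3965, Ebp, the member that did not follow the others with 25HC3S, and Dhcr7, whose window has no such box. Dhcr7 has 3 RefSeq windows, of which the one nearest the deposited gene start was used, and 1 of the other two holds a box.
Msmo1, chr8:64733579-64733828, minus strand: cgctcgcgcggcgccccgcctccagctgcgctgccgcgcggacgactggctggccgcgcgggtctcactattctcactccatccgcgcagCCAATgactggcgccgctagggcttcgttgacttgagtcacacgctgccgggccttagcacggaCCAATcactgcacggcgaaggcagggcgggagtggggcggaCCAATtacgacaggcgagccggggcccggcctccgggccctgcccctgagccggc
Nsdhl, chrX:72918271-72918520, plus strand: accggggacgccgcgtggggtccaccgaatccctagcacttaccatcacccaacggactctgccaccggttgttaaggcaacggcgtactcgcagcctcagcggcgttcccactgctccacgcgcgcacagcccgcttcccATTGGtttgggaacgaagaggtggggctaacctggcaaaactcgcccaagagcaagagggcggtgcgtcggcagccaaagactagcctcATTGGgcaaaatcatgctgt
Ebp, chrX:8193513-8193762, minus strand: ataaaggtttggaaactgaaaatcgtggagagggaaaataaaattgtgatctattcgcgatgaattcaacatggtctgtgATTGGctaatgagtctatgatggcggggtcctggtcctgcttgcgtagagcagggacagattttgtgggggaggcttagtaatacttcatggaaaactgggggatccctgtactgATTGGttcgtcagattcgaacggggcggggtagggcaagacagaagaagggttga
Dhcr7, chr7:143822917-143823166, plus strand: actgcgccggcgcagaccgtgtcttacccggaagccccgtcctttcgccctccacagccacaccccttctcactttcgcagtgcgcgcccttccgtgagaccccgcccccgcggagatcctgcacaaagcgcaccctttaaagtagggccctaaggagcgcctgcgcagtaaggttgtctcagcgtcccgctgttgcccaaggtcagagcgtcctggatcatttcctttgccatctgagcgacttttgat

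The NF-Y box was in 7 of the 8 windows, against 37.5% of the 11680 windows of tested genes. It was not particular to these enzymes. Among enzymes before squalene with a window, Mvk had 5 boxes, Hmgcs1 4, Mvd and Idi1 2 each, Pmvk 1 and Acat2 0. Msmo1 had 3 boxes, all on the gene strand and all upstream. Nsdhl had 4, of which 2 lie past the RefSeq transcript start. The deposited gene start of Nsdhl is 72918557, while the upstream part of its window ends at 72918520. On which side of the start those 2 boxes lie thus depends on the start used. Hsd17b7 had 3, Ebp had 2, and Lss, Cyp51 and Sc5d had 1 each. The Sp1 box (GGGCGG on either strand) was in 8 of 8 windows, against 63.8% of windows of tested genes. None of the 8 windows held the letters TCACNCCAC, a form of the sterol regulatory element bound by SREBPs, which were in 1.16% of windows of tested genes. None held an LXR element of the DR4 type either (AGGTCA repeated with 4 free bases between), which was in 0.0171% of those windows. Letters this rare are expected in few or none of 8 windows. Their absence therefore does not set these genes apart, and other forms of either element were not searched. Both strands were searched, no NF-Y box shared bases with an Sp1 box in these windows, and a match or its absence in such a window describes letters and not binding.

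**Figure D1:**
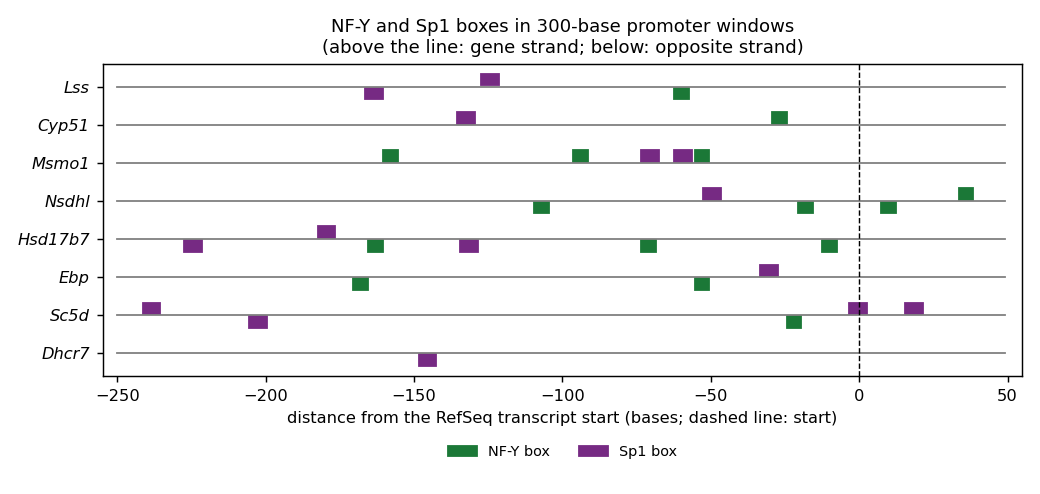
Positions of NF-Y boxes (green) and Sp1 boxes (purple) in the 300-base windows of 8 genes, by distance in bases from the RefSeq transcript start. Boxes above a line are on the gene strand and boxes below it on the opposite strand. The Dhcr7 window has no NF-Y box, and Nsdhl has 4.

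The cells carried the defining genes of cartilage. Col2a1, the main cartilage collagen, averaged 1958 FPKM ± 996 in vehicle, and all 9 chondrocyte markers examined averaged at least 1 FPKM in every group. All 10 macrophage markers did too. Their summed level was 865 to 994 FPKM with GW3965, 380 to 712 with 25HC3S, 681 to 960 with 25HC and 421 to 980 in vehicle, and their part in the results below was not tested. All 6 markers of fibroblasts and synovial lining averaged at least 1 FPKM in every group too, and Col1a1, a collagen of fibrous tissue and bone, averaged 3007 FPKM ± 1325 in vehicle, more than Col2a1. None of the 9 chondrocyte markers or these 6 was called in any comparison with all 20 libraries. Their calls without the 4 libraries named below were not examined. The chondrocyte markers summed to 3820 to 4734 FPKM with GW3965, 2387 to 3662 with 25HC3S, 3617 to 3966 with 25HC and 1720 to 5031 in vehicle. With such a spread, a lack of calls does not show equal levels, and their part was not tested. Fewer cells of a type and less RNA per cell cannot be told apart in such samples. Of 5 osteoblast markers 4 averaged at least 1 FPKM in every group, and Dmp1 was below 1 FPKM in every library. The 5 summed to 102 to 115 FPKM with GW3965 and 100 to 111 with 25HC3S. They summed to 120 to 126 with 25HC and 79.7 to 104 in vehicle, and their part was not tested. Of 5 adipocyte markers 3 averaged at least 1 FPKM in every group, Cidec was below 1 FPKM and Lep at 0 in every library. Their summed level was 18.1 to 23.7 FPKM with GW3965, 9.61 to 16.7 with 25HC3S, 21.05 to 28.35 with 25HC and 11.0 to 25.4 in vehicle, and their part was not tested. Libraries held 14653777 to 19365220 fragments in genes, worked out from the deposited values, and a member had 86 to 2745 fragments in a library. In 4 libraries, vehicle replicates 2, 3 and 4 and 25HC3S replicate 1, only 237 to 1171 genes had exactly 1 fragment, against 1808 to 2057 in the other 16. Mitochondrial genes took 0.369% to 4.07% of fragments in those 4 and 0.889% to 1.41% in the 16. Member results are given with all 20 libraries and, where a call changes or a size moves by over 1.5 times, without these 4, which leaves vehicle replicates 1 and 5.

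**Figure D2:**
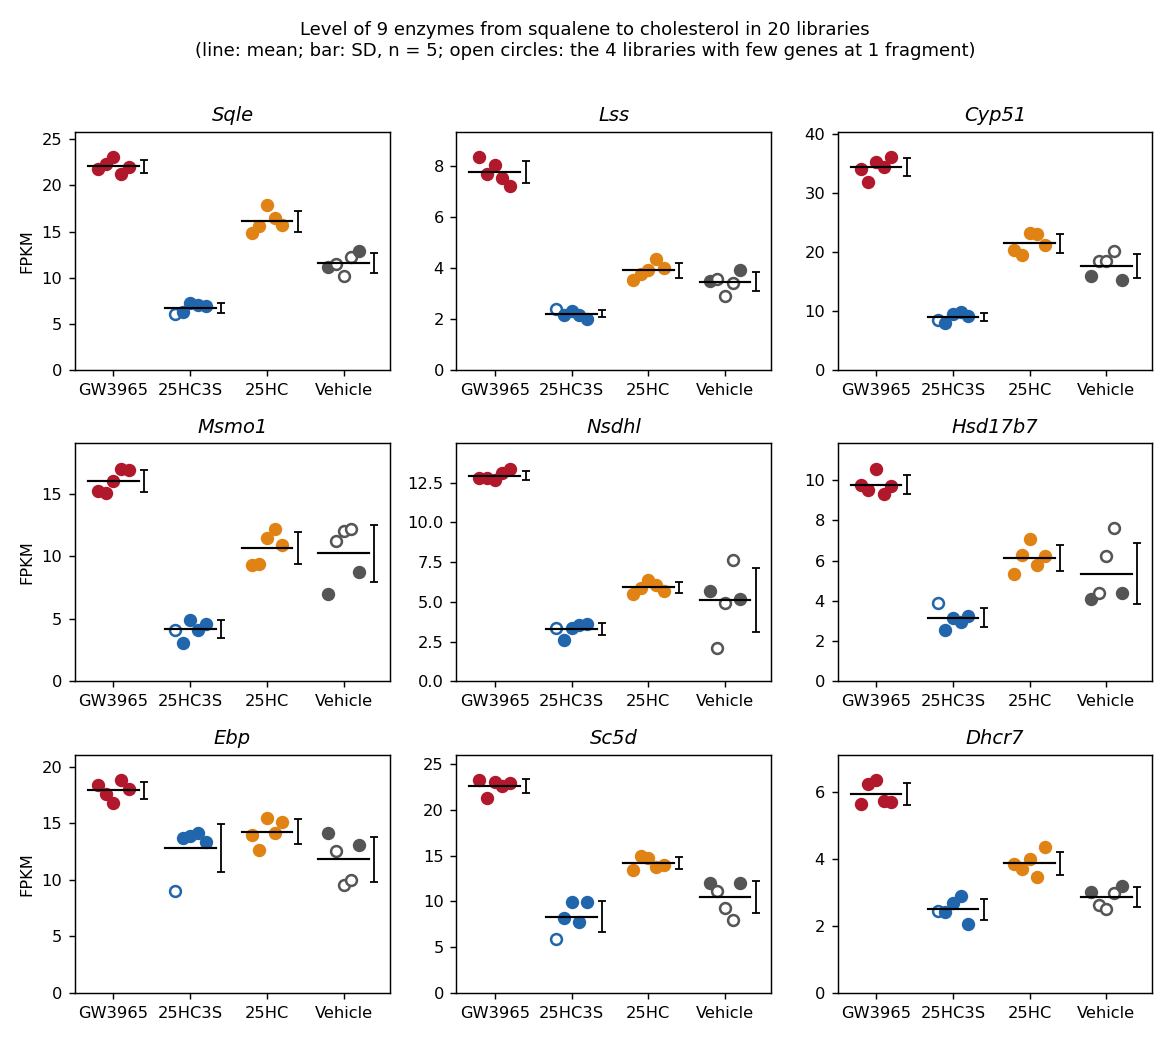
FPKM of each of the 9 enzymes in each of the 20 libraries, by group. Lines are means and bars SD over 5 libraries, and open circles mark the 4 libraries with few genes at 1 fragment. GW3965 libraries lie above all other libraries for all 9 genes, and 25HC3S libraries lie lowest for 5 of them.

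Sqle makes squalene epoxide and is a rate-limiting step of the pathway (chromosome 15, 59315077 to 59331192). It had 21.8, 22.3, 23.0, 21.2 and 22.0 FPKM with GW3965 and 6.02, 6.27, 7.24, 6.98 and 6.93 FPKM with 25HC3S. With 25HC it had 14.9, 15.6, 17.9, 16.5 and 15.7 FPKM, and in vehicle 11.1, 11.4, 10.2, 12.3 and 12.9 FPKM. No 2 of the 4 groups overlapped. Differences below are of log2(FPKM + 1), which understates the change of low genes, tested with limma and adjusted by Benjamini-Hochberg over all tested genes, with a call at an adjusted p under 0.05. Sqle differed from vehicle by 0.88 ± 0.07 (SE) with GW3965 (adjusted p = 5.7e-08), -0.71 ± 0.07 with 25HC3S (adjusted p = 4.2e-06) and 0.44 ± 0.07 with 25HC (adjusted p = 0.015). It was the one member called for 25HC, and without the 4 libraries that adjusted p was 0.051, for a difference of 0.39 ± 0.07. The call also ended in a fit of the 2 groups alone (adjusted p = 0.34), with a replicate block (0.06) and without 25HC replicate 3 (0.087). Sqle had the largest moderated t of all 12752 genes between 25HC3S and 25HC.

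Lss makes lanosterol (chromosome 10, 76531588 to 76557138). Its levels were 8.32, 7.68, 8.03, 7.51 and 7.21 FPKM with GW3965, 2.40, 2.16, 2.32, 2.16 and 2.01 with 25HC3S, 3.52, 3.77, 3.90, 4.34 and 3.97 with 25HC, and 3.49, 3.54, 2.90, 3.40 and 3.93 in vehicle. GW3965 libraries were all above and 25HC3S libraries all below vehicle, while 25HC and vehicle overlapped. Against vehicle Lss rose by 0.98 ± 0.07 with GW3965 (limma adjusted p = 9.3e-09) and fell by 0.47 with 25HC3S (adjusted p = 0.00054). With 25HC the difference was 0.14 ± 0.07 (adjusted p = 0.16), and 0.057 ± 0.066 without the 4 libraries. An antisense gene, 4930483K19Rik, overlaps 11268 bases of Lss on the opposite strand and had 0.142 to 0.443 FPKM with GW3965, 0 to 0.0893 with 25HC3S, 0.0413 to 0.0812 with 25HC and 0 to 0.133 in vehicle. The strand setting of the counting is not given in the sources used here, so the fragments of the pair cannot be told apart.

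Cyp51, lanosterol demethylase (chromosome 5, 4081145 to 4104746), was the most abundant member in all groups but 25HC3S, where Ebp was higher. It had 34.1, 31.9, 35.1, 34.4 and 36.0 FPKM with GW3965, and 8.48, 8.01, 9.50, 9.74 and 9.18 FPKM with 25HC3S. The 25HC libraries had 20.3, 19.5, 23.1, 23.0 and 21.2 FPKM and the vehicle libraries 15.9, 18.4, 18.4, 20.1 and 15.2 FPKM. Only the 25HC and vehicle libraries touched. The mean with GW3965 was 1.95 times that of vehicle, and the mean with 25HC3S 0.511 times. These were called as 0.93 ± 0.08 (limma adjusted p = 1.9e-07) and -0.89 ± 0.08 (adjusted p = 9.9e-07) on the log2 scale. For 25HC the difference was 0.27 ± 0.08 (adjusted p = 0.15), and 0.44 ± 0.07 (adjusted p = 0.051) without the 4 libraries. Cyp51 shares 166 bases with Akap9 on the other strand, which had 3.02 to 7.28 FPKM.

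Msmo1, a methylsterol oxidase that acts on the C4 methyl groups (chromosome 8, 64718139 to 64733792), had the widest fall with 25HC3S. Its values were 15.2, 15.1, 16.0, 17.0 and 16.9 FPKM with GW3965 and 4.13, 3.11, 4.94, 4.11 and 4.63 FPKM with 25HC3S. They were 9.32, 9.39, 11.5, 12.2 and 10.9 FPKM with 25HC and 6.97, 11.3, 12.1, 12.2 and 8.76 FPKM in vehicle. Vehicle replicates 1 and 5 were the low ones of their group, and replicates 2, 3 and 4, which stand apart, the high ones. Msmo1 fell by 1.10 with 25HC3S relative to vehicle (limma adjusted p = 5.4e-05) and rose by 0.63 ± 0.13 with GW3965 (adjusted p = 0.0051). Without the 4 libraries the fall was -0.78 ± 0.13 and the rise 0.95 ± 0.13, both called. The call of the rise was lost in a fit of the GW3965 and vehicle libraries alone (adjusted p = 0.068). The difference between 25HC and vehicle was 0.07 ± 0.13, and 0.40 ± 0.13 (adjusted p = 0.71) without the 4.

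Nsdhl, the decarboxylating C4 dehydrogenase (chromosome X, 72918557 to 72958514), had the widest rise with GW3965. The GW3965 libraries had 12.8, 12.8, 12.6, 13.1 and 13.4 FPKM and the 25HC3S libraries 3.35, 2.61, 3.33, 3.52 and 3.64 FPKM. The 25HC libraries had 5.52, 5.87, 6.38, 6.07 and 5.69 FPKM and the vehicle libraries 5.68, 2.09, 4.95, 7.65 and 5.21 FPKM. Vehicle replicate 2 was below every other library and rested on 86 fragments, and vehicle replicate 4 was the highest outside GW3965. The rise with GW3965 was 1.26 ± 0.17 (limma adjusted p = 0.00012), a ratio of means of 2.53. It was as low as 1.03 in fits that left out 1 library. Without the 4 libraries it was 1.11 ± 0.08, next to 1.09 ± 0.07 for Cyp51. With 25HC3S the difference from vehicle was -0.44 ± 0.17 (adjusted p = 0.21). It was -0.67 without vehicle replicate 2 (adjusted p = 0.000488) and -0.60 ± 0.08 without the 4 libraries (adjusted p = 0.0005). With 25HC it was 0.25 ± 0.17 with all libraries and 0.10 ± 0.08 without the 4.

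Hsd17b7, the keto reductase of the same C4 step (chromosome 1, 169949535 to 169969241), had 9.74, 9.50, 10.5, 9.30 and 9.70 FPKM with GW3965 and 3.91, 2.56, 3.17, 2.96 and 3.26 FPKM with 25HC3S. It had 5.36, 6.28, 7.07, 5.78 and 6.23 FPKM with 25HC and 4.10, 4.38, 6.24, 7.62 and 4.41 FPKM in vehicle. Vehicle replicates 3 and 4 and 25HC3S replicate 1 were the highest of their groups. Against vehicle it rose by 0.79 ± 0.12 with GW3965 (limma adjusted p = 0.00046) and fell by 0.58 with 25HC3S (adjusted p = 0.018). The second call was lost without 25HC3S replicate 2 (adjusted p = 0.068) or replicate 4 (adjusted p = 0.053), and held without the 4 libraries (-0.40 ± 0.08, adjusted p = 0.013). With 25HC the difference was 0.20 ± 0.12, and 0.44 ± 0.08 without the 4 (adjusted p = 0.076).

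Ebp, the sterol isomerase that shifts the ring double bond (chromosome X, 8185329 to 8193512), had 18.4, 17.6, 16.8, 18.8 and 18.0 FPKM with GW3965 and 9.00, 13.7, 13.9, 14.2 and 13.3 FPKM with 25HC3S. It had 14.0, 12.6, 15.4, 14.1 and 15.1 FPKM with 25HC and 14.1, 12.5, 9.50, 10.0 and 13.0 FPKM in vehicle. Apart from GW3965, the groups overlapped, and the lowest 3 libraries were 25HC3S replicate 1 and vehicle replicates 3 and 4. Ebp rose with GW3965 by 0.57 ± 0.11 (limma adjusted p = 0.0039). That rise was 0.38 ± 0.06 without the 4 libraries (adjusted p = 0.00098). With 25HC3S it differed from vehicle by 0.10 (95% interval -0.13 to 0.34, adjusted p = 0.61), and by 0.02 (-0.11 to 0.16) without the 4 libraries. With 25HC the difference was 0.26 ± 0.11 (adjusted p = 0.15), and 0.063 ± 0.061 without the 4. Its share of the summed FPKM of the 9 enzymes was 12.0% ± 0.572 with GW3965, 24.5% ± 3.04 with 25HC3S, 14.8% ± 0.784 with 25HC and 15.1% ± 2.81 in vehicle (SD, n = 5 each).

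Sc5d, the desaturase that adds the C5 double bond (chromosome 9, 42251595 to 42264256), had 23.2, 21.2, 23.0, 22.6 and 22.9 FPKM with GW3965 and 5.90, 8.14, 9.96, 7.72 and 9.88 FPKM with 25HC3S. The levels were 13.4, 15.0, 14.8, 13.7 and 14.0 FPKM with 25HC and 12.0, 11.2, 9.23, 7.97 and 12.0 FPKM in vehicle. All 25HC libraries exceeded all vehicle libraries, while 25HC3S and vehicle overlapped through vehicle replicates 3 and 4. Sc5d rose by 1.05 ± 0.11 with GW3965 (limma adjusted p = 9.4e-06). Against vehicle it differed by -0.31 ± 0.11 with 25HC3S (adjusted p = 0.2), and by -0.40 ± 0.08 without the 4 libraries, where it was called (adjusted p = 0.0095). With 25HC the difference was 0.42 ± 0.11 (adjusted p = 0.15), and 0.22 ± 0.08 without the 4.

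Dhcr7, which reduces 7-dehydrocholesterol to cholesterol (chromosome 7, 143823145 to 143848410), had the lowest mean of the 9 in GW3965, 25HC and vehicle. It had 5.65, 6.23, 6.34, 5.72 and 5.68 FPKM with GW3965 and 2.45, 2.40, 2.68, 2.89 and 2.06 FPKM with 25HC3S. It had 3.83, 3.69, 4.01, 3.46 and 4.34 FPKM with 25HC and 3.01, 2.62, 2.50, 2.98 and 3.19 FPKM in vehicle. GW3965 and 25HC libraries were all above vehicle, and 25HC3S overlapped vehicle. The rise with GW3965 was 0.85 ± 0.07 (limma adjusted p = 3.9e-07). With 25HC3S the difference was -0.14 ± 0.07 (adjusted p = 0.31), and -0.23 ± 0.09 without the 4 libraries (adjusted p = 0.16). With 25HC it was 0.33 ± 0.07 (adjusted p = 0.15).

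GW3965 against vehicle asks what a synthetic LXR agonist does to these genes. Here 9 of 9 members were called higher, against 3.49% of tested genes. All 9 also had groups that did not overlap, against 3.79% of tested genes. Their median difference was 0.88, from 0.57 for Ebp to 1.26 for Nsdhl, against a median of 0.02 over all tested genes. Of the sterol C14 reductases, which also act after squalene, Tm7sf2 rose by 0.81 ± 0.09, and Lbr differed by -0.11 ± 0.08 (0.09 without the 4 libraries). Of 8 tested enzymes before squalene 7 were called higher, with a median of 0.80. The widest rise was in Mvd (1.69 ± 0.31, and 1.01 without the 4 libraries). All 8 were called higher without the 4 libraries. Of 7 genes of SREBP control 3 were called higher, Srebf1 (2.88 ± 0.12), Insig1 and Srebf2. All 5 LXR targets examined rose, led by Abcg1 (3.67 ± 0.12). The LXR target Nr1h3 (0.44 ± 0.13 with all) lost its call without the 4 libraries, at 0.10. Of the 10 macrophage markers 2 were called lower and 0 higher. These other lists were written down with earlier results of these data known.

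The comparison of 25HC3S with vehicle shares its vehicle libraries with the one above. Here 5 of 9 members were called lower, Msmo1, Cyp51, Sqle, Hsd17b7 and Lss, against 1.14% of tested genes, and 0 were called higher. The same 5 were the members whose groups did not overlap, again against 1.14% of tested genes. Nsdhl, Sc5d and Dhcr7 had negative differences that did not pass, and Ebp a positive one. The median was -0.47, against 0.02 over all tested genes. Without the 4 libraries 7 of 9 were called lower, Nsdhl and Sc5d being added. Tm7sf2 fell (-0.47 ± 0.09), and Lbr differed by -0.08 (0.13 without the 4). Of the 8 enzymes before squalene 4 were called lower, Idi1 (-1.05 ± 0.14) the most, and 6 without the 4 libraries. Of the 7 SREBP control genes Insig1 (-0.91 ± 0.11) and Srebf2 (-0.33 ± 0.06) were called lower. Stard4, a sterol carrier, fell too (-0.74 ± 0.11, and -0.43 without the 4 libraries), and none of the 5 LXR targets passed (1 had an unadjusted p under 0.05). That gene, Abcg1, differed by 0.48 ± 0.12 with all libraries (limma adjusted p = 0.055), and by 0.37 without the 4 (adjusted p = 0.019). Of the 10 macrophage markers 2 were called lower and 1 higher.

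With 25HC against the same vehicle libraries, 1 of 9 members was called higher, Sqle, against 0.0314% of tested genes. The 9 differences were all positive, with a median of 0.26 against 0.03 over all tested genes, and 6 of the 9 had an unadjusted p under 0.05. Over all tested genes 3863 of 12752 had an unadjusted p under 0.05 and 5 were called. Groups did not overlap for Sqle, Sc5d and Dhcr7, all higher with 25HC, against 1.41% of tested genes. Without the 4 libraries 0 of 9 were called by limma, 2 with an adjusted p of 0.051. Of the 8 enzymes before squalene 0 passed, with a median of 0.40 and 7 at an unadjusted p under 0.05. Srebf2 (0.32 ± 0.06) was called higher and Abca1, a cholesterol exporter and LXR target, lower (-0.79 ± 0.13). Without the 4 libraries Srebf2 (0.29, adjusted p = 0.078) lost its call, and Abca1 kept its own at -0.46. In that fit Insig1 (0.61) and Hmgcs1 (0.51) were called higher, both with an adjusted p of 0.047. Of the 10 macrophage markers 0 passed, with 3 at an unadjusted p under 0.05. The directions of Sqle and Abca1 with 25HC run against the textbook roles of 25HC given above. No gene was targeted in this design, so the labels of the 25HC and 25HC3S groups could not be checked against the values.

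25HC3S and 25HC differ by the 3-sulfate and were given at the same dose and time, the one such pair of compounds in the series. None of the vehicle libraries enters this difference except through the shared estimate of the spread. With 25HC3S 7 of 9 members were called lower than with 25HC, against 0.659% of tested genes. Groups did not overlap for 8 of 9, against 4.02%. The median was -0.72, against 0.00 over all tested genes. The differences were -1.17 ± 0.13 for Msmo1, -1.17 ± 0.08 for Cyp51, -1.15 ± 0.07 for Sqle, -0.78 ± 0.12 for Hsd17b7 and -0.72 ± 0.11 for Sc5d. Lss differed by -0.61 ± 0.07 and Dhcr7 by -0.48 ± 0.07, with limma adjusted p of 7.3e-09 (Sqle) to 0.0019 (Sc5d) among the 7. Mean levels with 25HC3S were 0.392 times those with 25HC for Msmo1 and 0.646 times for Dhcr7. Nsdhl did not pass with all libraries (-0.69 ± 0.17, adjusted p = 0.072) and passed without the 4 (-0.70 ± 0.06, adjusted p = 4e-06). Ebp differed by -0.16 (95% interval -0.39 to 0.08, adjusted p = 0.83), and by -0.04 (-0.15 to 0.06) without the 4. Tm7sf2 was lower (-0.41 ± 0.09), and Lbr differed by 0.05. Of the 8 before squalene 5 were called lower, Hmgcs1 (-1.26 ± 0.10) the most, and 8 without the 4 libraries. Insig1 (-1.41 ± 0.11) and Srebf2 were called lower too. Of the 5 LXR targets Abcg1 (0.70 ± 0.12) and Abca1 were called higher with 25HC3S. Of the 10 macrophage markers 2 were called lower and 1 higher. Of 3 tested adipocyte markers Adipoq was called lower (-0.89 ± 0.20, limma adjusted p = 0.042). Their part in these differences was not tested.

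GW3965 and 25HC were the neighbours at the top of the order, at doses of 2 and 20 µM, so their difference also carries the difference in dose. With GW3965 8 of 9 members were called higher than with 25HC, against 0.847% of tested genes, and 9 of 9 did not overlap, against 5.4%. The differences were 1.01 ± 0.17 for Nsdhl, 0.84 ± 0.07 for Lss, 0.66 ± 0.08 for Cyp51 and 0.64 ± 0.11 for Sc5d. They were 0.59 ± 0.12 for Hsd17b7, 0.55 ± 0.13 for Msmo1, 0.51 ± 0.07 for Dhcr7 and 0.43 ± 0.07 for Sqle. Ebp differed by 0.31 ± 0.11 (limma adjusted p = 0.29), and passed without the 4 libraries (0.31 ± 0.05, adjusted p = 0.00025). The call of Msmo1 (adjusted p = 0.026) was lost without any 1 of 25HC replicates 1, 2 and 5 and GW3965 replicates 3, 4 and 5, with adjusted p up to 0.087. Tm7sf2 (0.87 ± 0.09) was called higher with GW3965. So were 3 of the 8 enzymes before squalene, led by Acat2 (0.65 ± 0.15), and 8 without the 4 libraries. Among genes called higher, Srebf1 (2.54 ± 0.12) led 3 of 7 SREBP control genes, and Abca1 (4.01 ± 0.13) 4 of 5 LXR targets. Of the 10 macrophage markers Mrc1 was called lower with GW3965 (-0.61 ± 0.13, limma adjusted p = 0.013) and 0 were called higher. Among neighbours in the order, 25HC and vehicle therefore differed for Sqle alone by this test, and vehicle and 25HC3S for 5 members.

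**Figure D3:**
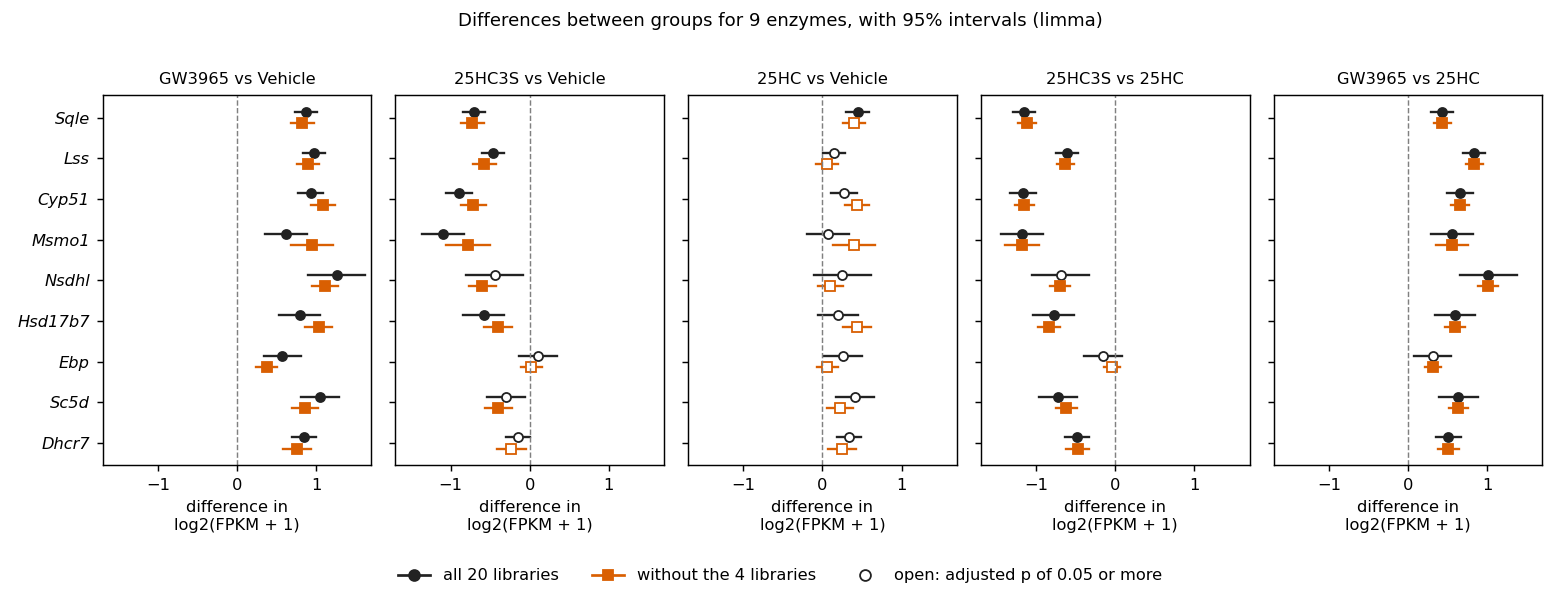
Difference in log2(FPKM + 1) of each enzyme in 5 comparisons, first group minus second, with 95% intervals from limma. Black circles use all 20 libraries and orange squares leave out the 4 libraries that stand apart, and open symbols have an adjusted p of 0.05 or more. The circle of Ebp lies closest to 0 in 4 of the 5 comparisons, and GW3965 against vehicle has 9 filled circles.

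Members differed in how they varied among libraries of a group. The coefficient of variation of FPKM was 2.21% to 5.60% with GW3965, 7.00% to 20.3% with 25HC3S, 4.78% to 12.0% with 25HC and 9.00% to 39.0% in vehicle, where Nsdhl was at the top and Sqle at the bottom. The libraries that stand apart were set against those of their own group that do not, which for vehicle are replicates 1 and 5 alone. On the log2(FPKM + 1) scale vehicle replicates 3 and 4 were then higher for Msmo1 by 0.57 and 0.58. They were higher for Hsd17b7 by 0.46 and 0.71. The same libraries were lower for Ebp by -0.47 and -0.40 and for Sc5d by -0.35 and -0.53. 25HC3S replicate 1 was lower for Ebp (-0.56) and Sc5d (-0.52) and higher for Hsd17b7 (0.30). Over all tested genes the median of the same difference ran from -0.06 to 0.00 in the 4 libraries. Within groups, over the 20 libraries, Ebp and Sc5d had a Pearson r of 0.77, Cyp51 and Msmo1 0.83, and Hsd17b7 with Ebp -0.71. These values describe libraries that share the deviations of those 4.

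**Figure D4:**
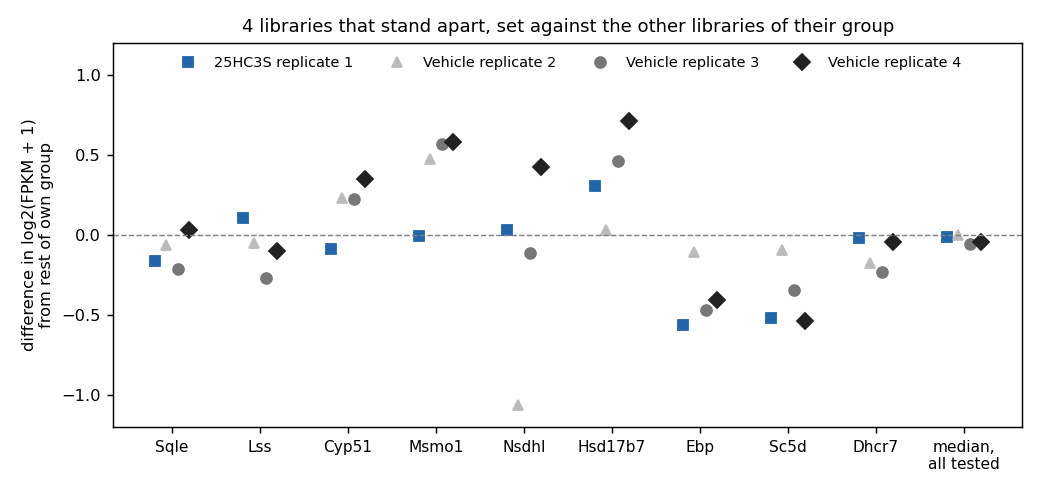
Difference in log2(FPKM + 1) of the 4 libraries with few genes at 1 fragment, for each enzyme and for the median of all tested genes. Each is set against the mean of the libraries of its group outside those 4, which for vehicle are replicates 1 and 5. Msmo1 and Hsd17b7 lie above 0 in vehicle replicates 3 and 4, Ebp and Sc5d lie below 0 in all 4 libraries, and Nsdhl is at -1.06 in vehicle replicate 2.

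The genes whose pattern over the 20 libraries was most like the mean of the 9 members were ranked by Pearson r, as a description. Such an r is mostly set by the 4 group means. Among the first 10 were Insig1 (0.99), Srebf2 (0.98), Fdft1 (0.95), Plin2 (0.95), Aldoc (0.95), Acly (0.95) and Cbr2 (0.95). Within groups the r of these genes to the members' mean was lower, from 0.096 for Acly to 0.59 for Srebf2. The closest gene was Srebf2 for Sqle, Acly for Lss, Idi1 for Msmo1, Fads1 for Nsdhl, Idh1 for Hsd17b7 and Slc1a5 for Ebp. Over the 20 libraries Ebp was the member least like the other 8 (r = 0.68), the others having 0.88 to 0.97. Within groups the r of a member to the other 8 was lower, from -0.16 for Hsd17b7 to 0.82 for Sqle. It was -0.02 for Ebp and 0.04 for Msmo1.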

How the data were processed

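RNA sequencing values were available for 20 libraries of mouse articular chondrocytes, 5 in each of 4 treatment groups taken from the sample titles. Per the labels' protocols, Trizol was used for RNA and a fast RNA-seq kit for the libraries. CASAVA 1.8 and HISAT2 2.0.5 were used, per the submitters' processing notes. What program counted fragments, on which strand setting and genome build, was not stated in any source used. The authors deposited FPKM per gene in 1 table. Its gene coordinates equal those of GENCODE release M21 (GRCm38) for all 9 members and for 98.3% of the identifiers shared with it. FPKM times gene length came in whole multiples of 1 value a library (tolerance 0.02, at least 99.9% of values), which gave fragments per gene. No pair of libraries of the same group agreed within sampling noise, and pairs across groups were not compared.

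Genes with at least 1 FPKM in at least 5 libraries were tested (12752) on log2(FPKM + 1), using limma 3.58.1 (R 4.3.3) with 1 mean per group over all 20 libraries, empirical Bayes moderation with a trend, with two-sided tests and Benjamini-Hochberg adjustment within each of 5 comparisons. The steps were tested on simulated data with the same spread and depth in every library, which does not cover the unequal spread seen here. Errors are SE for log2 differences and SD for levels. The 9 members, the other gene lists and the rule for the named genes were chosen with earlier results of these data known. Named genes were the 9 members, in each other list the called gene with the largest difference, and the genes with the highest Pearson r to the members. Some genes these rules name are not reported here. Further genes of short lists are named to complete a count and were chosen after their values were seen. Alternatives were another pseudocount, no filter, 2 rescalings, fits of the 2 groups alone, library weights, a replicate block, each replicate left out and, chosen after seeing the data, the 4 libraries that stand apart left out. The 95% intervals are limma's and cover the spread between libraries. PCR fragments are not independent molecules.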

Additional observations from a re-analysis of the deposited data

Results flagged for a closer look

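One of 36 sets of 5 libraries (9 genes in 4 groups) held a value far from the rest. Ebp had 9.00 FPKM in 25HC3S replicate 1, while the other 4 libraries of that group had 13.3 to 14.2 FPKM. The gap to the nearest library was 0.840 of the range of the group, above the critical value of 0.710. Chance alone marks about 1 in 20 such sets. That library is 1 of the 4 that stand apart, and its difference in Ebp from the rest of its group was -0.56 on the log2(FPKM + 1) scale. Its part in the result was not tested beyond leaving it out.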

How the results depend on the processing

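The 9 members were called higher with GW3965 against vehicle in each of the 10 fits that left out 1 library, and 8 of 9 in a fit of the 2 groups alone, where Msmo1 (adjusted p = 0.068) lost its call. In such fits the members called were 0 to 4 for 25HC against vehicle, 4 to 6 for 25HC3S against vehicle, 7 in each for 25HC3S against 25HC, and 7 to 8 for GW3965 against 25HC. For 25HC against vehicle the count of 1 became 0 in a fit of the 2 groups alone, 0 with a replicate block, 3 with library weights and 0 without the 4 libraries that stand apart. It became 4 without vehicle replicate 1 or 5 and 0 without 25HC replicate 3. Over all tested genes, fits of this comparison that left out 1 library called 1 to 2659 genes, against 5 with all libraries. Whether the higher member counts go beyond that change was not tested. For 25HC3S against vehicle the count of 5 became 3 in a fit of the 2 groups alone, where Lss (adjusted p = 0.11) and Hsd17b7 (adjusted p = 0.42) lost their calls. One difference changed sign: Msmo1 with 25HC against vehicle was -0.045 without vehicle replicate 1, and ran from -0.045 to 0.14 over all fits that left out 1 library. With a pseudocount of 0.1 and with both rescalings, all 45 member differences kept their sign and their side of the threshold. Without a filter the call of Msmo1 for GW3965 against 25HC was lost. The cause was not tested.

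The replicate numbers did not pair the libraries: 4 of 30 same-numbered pairs had deviations from their group means that correlated above 0.1, and 4 of 20 libraries correlated best with their own number. With the replicate block the call of Sqle for 25HC against vehicle was lost (adjusted p = 0.06), and the other 44 member calls stood as without it.

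Counts over all tested genes, which are not bounded by the number of members, moved as well. Without the 4 libraries they were 3 for 25HC against vehicle (5 with all), 504 for 25HC3S against vehicle (205), 991 for GW3965 against vehicle (824), 916 for 25HC3S against 25HC (104) and 1674 for GW3965 against 25HC (222). In fits of the 2 groups alone they were 1, 23, 152, 205 and 1427 in the same order, and with library weights 16, 769, 1230, 1053 and 1676. With the block they were 1, 151, 544, 82 and 191. Leaving out 1 library gave 1 to 2659, 98 to 622, 450 to 3247, 60 to 93 and 152 to 183. The lowest fragment count of a member in a library was 86, for Nsdhl in vehicle replicate 2.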
